A study of Mus musculus with 16 samples.

Results

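The Ly6 gene cluster of mouse chromosome 15 was examined in splenic B cells through 7 of its genes, Ly6k, Gml, Ly6e, Ly6a, Ly6c1, Ly6g and Ly6f. They were taken by gene name from the array annotation and are represented by 9 probes, out of 34821 gene names and 55681 probes on the array. The set was chosen by measured values, namely how the signals of these genes differed between the genotypes on these same arrays, so their genotype differences are given below as a description, with no test. All 9 probes passed the filter on dim probes, which asked for a signal well above background on at least 4 of the 16 arrays. The first Gml probe passed it through deficient arrays alone, on 6 of them, so its presence among the measured probes is no evidence of a difference.

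B cells were purified from spleen with beads against B220, a surface form of CD45 found on B cells, and their total RNA was hybridised to single-colour (Cy3) Agilent arrays. The deficient mice lacked the 3'RR, the regulatory region at the 3' end of the heavy chain (IgH) locus, where several enhancers lie beyond the constant genes. Their knocked-out IgH allele came from strain 129 and was carried in a BALBC background, and they are listed under strain BALBC, whereas the wild-type mice are listed under 129. Strain and genotype therefore cannot be told apart in any comparison below. Each of 2 slides held 4 arrays from deficient mice and 4 from wild-type mice. The design text names 4 mice per genotype, and the labels do not tie arrays to animals, so errors and p-values describe only how these samples vary, in part perhaps for technical reasons. All 16 RNA samples had a RIN of 9. Sex, age and the Ly6 haplotype of the mice are not given in the labels used here.

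Proteins of the Ly6 family are small and rich in cysteine, share the fold of the urokinase receptor domains, and are mostly held on the outer cell surface by a glycosylphosphatidylinositol (GPI) anchor. Many are used as markers of leukocyte subsets, and several, Ly6a and Ly6e among them, are induced by interferon. Ly6a encodes Sca-1, a marker of blood stem cells and of activated lymphocytes. Inbred strains carry different Ly6 haplotypes, and BALB/c mice are known for fewer Sca-1-positive resting lymphocytes than strains with the haplotype of 129.

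The cells had the transcripts of B cells, since all 9 of 9 B cell markers listed, among them Cd79a, Cd79b and Ms4a1, were well above background on all arrays. Some markers of other cells, among them Siglech, Cd68, Lck and Cd4, were so too, and these values do not show purity. The 75th percentile of signal, to which each array was scaled, was 576 to 851 on slide 1 and 596 to 990 on slide 2. Slide 1 arrays had 26109 to 29282 probes well above background, and slide 2 arrays had 30000 to 34244. No probe was saturated.

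The 9 probes span 475 kb of chromosome 15 in mm9, the build of the array design, and each is assigned in the files to a transcript of its gene. Exon and UTR boundaries in mm9 were not used here. Ly6k (chr15:74627529-74627588) and Gml (chr15:74644249-74644308 and chr15:74644266-74644325) lie at one end. Ly6e (chr15:74789592-74789651), Ly6a (chr15:74825553-74825612) and Ly6c1 (chr15:74875495-74875554 and chr15:74877785-74877844) follow, and Ly6g (chr15:74989023-74989082) and Ly6f (chr15:75102462-75102522) lie at the other end.

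Genes of the cluster arose by duplication, so the sequence of a probe matters for what it can report. The Ly6g probe shares 38 of 42 aligned bases with the probe for ENSMUST00000089689, described in the array annotation as a predicted pseudogene of the cluster, and 28 of 32 with the probe for I830127L07Rik, a synonym of Ly6a2 in the RefSeq table of GRCm38.p6. These probes are shown, as given by the array files and 5′ to 3′, with capitals for the bases identical between the Ly6g and ENSMUST00000089689 probes and, in the last line, for the bases that the I830127L07Rik probe shares with the Ly6g probe.
Ly6g (plus strand, chr15:74989023-74989082): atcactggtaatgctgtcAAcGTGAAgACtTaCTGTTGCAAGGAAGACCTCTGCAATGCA
ENSMUST00000089689 (minus strand, chr15:75066100-75066159): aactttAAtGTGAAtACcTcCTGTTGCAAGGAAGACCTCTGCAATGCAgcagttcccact
I830127L07Rik (minus strand, chr15:74962205-74962264): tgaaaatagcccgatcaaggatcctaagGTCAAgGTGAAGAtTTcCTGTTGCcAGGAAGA

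The longest run shared by the Ly6g and ENSMUST00000089689 probes is 28 bases, and cross-hybridisation between these genes was not tested. The pair of Gml probes overlap by 43 bases, in capitals, and are close to being 1 measurement of the transcript.
Gml, first probe (minus strand, chr15:74644249-74644308): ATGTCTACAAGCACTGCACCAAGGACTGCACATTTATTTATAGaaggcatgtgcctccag
Gml, second probe (minus strand, chr15:74644266-74644325): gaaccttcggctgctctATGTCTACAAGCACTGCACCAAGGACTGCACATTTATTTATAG
No other pair of these 9 probes shared a comparable stretch. Probes were compared with probes and not with whole transcripts, so their match to other transcripts of the family was not examined. Ly6c1 has a near-identical neighbour, Ly6c2, with no probe of that name on the array, so the Ly6c1 probes are read as Ly6c1 or Ly6c2.

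Across the cluster, Ly6a, Ly6g and Ly6f were higher in deficient than in wild-type cells on both slides, and Ly6k was lower on both, without overlap. The bright Ly6c1 probe was higher without overlap on slide 1 and Gml on slide 2, while Ly6e and the other Ly6c1 probe overlapped between the genotypes on both slides. Values are log2 processed signal relative to the 75th percentile of the array, and they compare arrays for 1 probe and not 1 probe with another. For 3 of the 9 probes, Ly6a, Ly6g and Ly6f, every deficient array lay above every wild-type array on both slides, as for 1.82% of the 32951 measured probes. For 1 probe, Ly6k, every deficient array lay below on both slides, which held for 1.95%. Because the members were picked for this contrast, nothing is read from these shares. The fitted difference over both slides passed an adjusted p of 0.05 in limma for 16.8% of all measured probes.

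**Figure D1:**
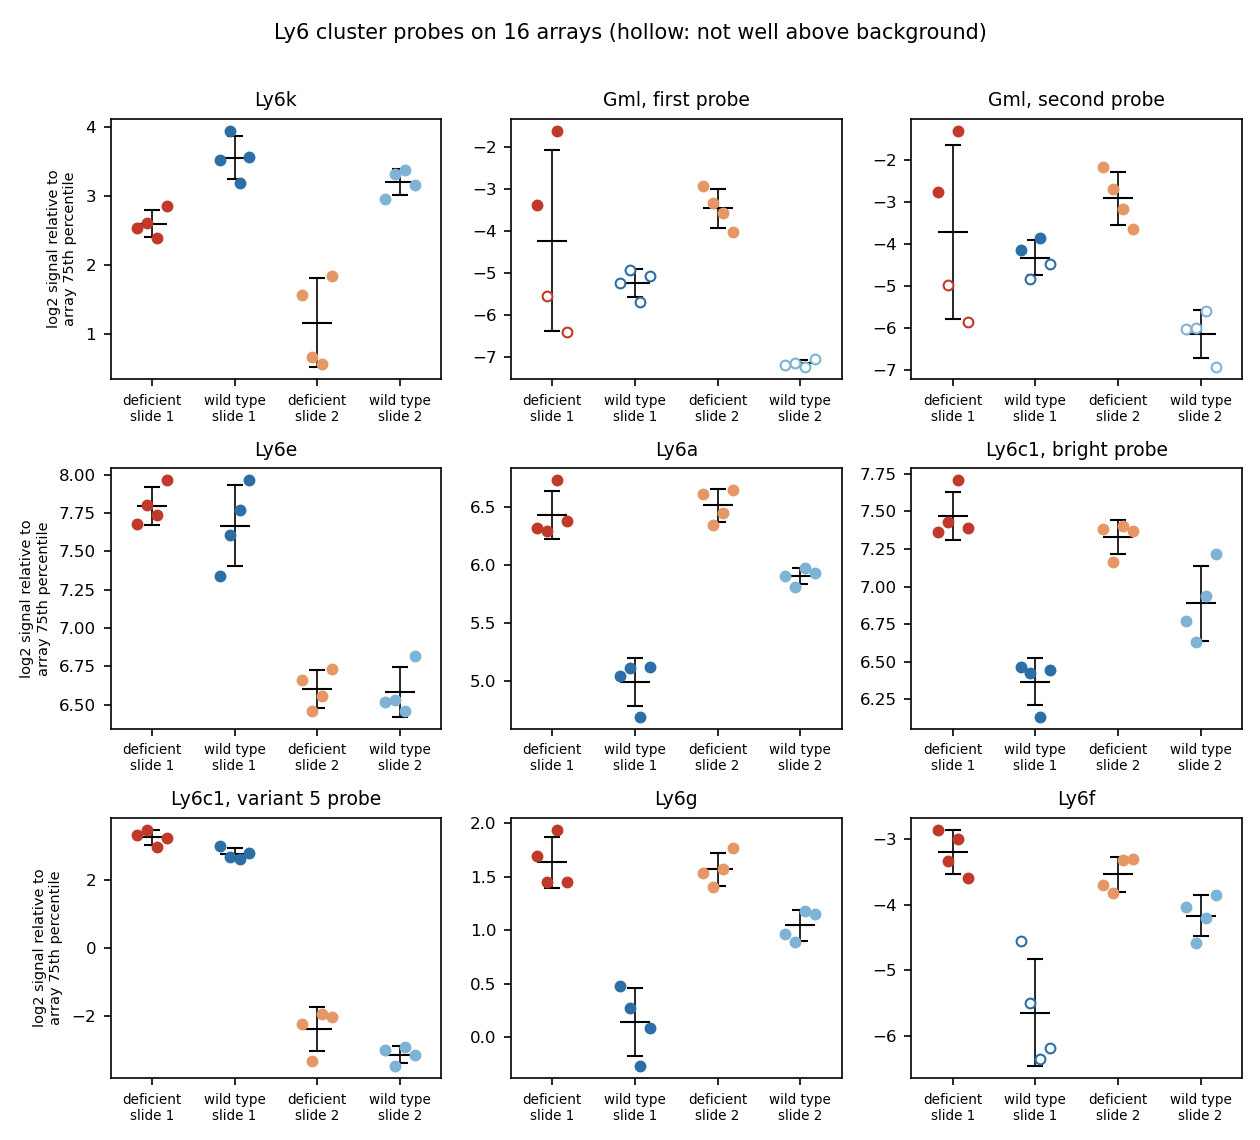
Signal of each of the 9 probes on each of the 16 arrays (y axis, log2 signal relative to the array's 75th percentile), with deficient left of wild type on each slide. Points are arrays, hollow where the spot was not well above background, and bars are the mean and SD of 4 arrays. The groups are apart on both slides for Ly6a, Ly6g, Ly6f and Ly6k, and they overlap for Ly6e.

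Ly6a gave 6.32, 6.29, 6.73 and 6.38 on the deficient arrays of slide 1, against 5.04, 5.11, 4.69 and 5.12 on the wild-type arrays. On slide 2 it gave 6.62, 6.35, 6.45 and 6.65 in deficient cells, against 5.90, 5.81, 5.97 and 5.94 in wild-type cells. The genotypes did not overlap on either slide. Ly6a was 2.72-fold higher in deficient cells on slide 1 (log2 difference 1.44, SE 0.12, 4 arrays per group) and 1.53-fold higher on slide 2 (0.61, SE 0.12). Its deficient means were 6.43 ± 0.21 and 6.52 ± 0.14 on slides 1 and 2 (SD, n = 4 each), with overlapping ranges. Its wild-type means were 4.99 ± 0.20 on slide 1 and 5.90 ± 0.07 on slide 2, without overlap, so the order of the 4 groups was both deficient groups, then wild type of slide 2, then wild type of slide 1. The mice with the strain entry BALBC, the strain known for fewer Sca-1-positive resting lymphocytes, were thus the ones with more Ly6a signal. These arrays measure RNA and not surface Sca-1.

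Ly6c1 encodes Ly6C, a surface antigen of monocytes, plasma cells, endothelium and some T cells. Its bright probe, annotated to transcript variant 2, gave 7.36, 7.43, 7.71 and 7.39 on the deficient arrays of slide 1, against 6.47, 6.43, 6.13 and 6.44 on the wild-type arrays. On slide 2 it gave 7.39, 7.17, 7.40 and 7.37 in deficient cells, against 6.77, 6.63, 6.94 and 7.22 in wild-type cells. The groups were apart on slide 1 and overlapped on slide 2, where wild-type array 5 exceeded deficient array 2. The differences were 1.10 (SE 0.13, 2.15-fold) on slide 1 and 0.44 (SE 0.13, 1.36-fold) on slide 2.

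The other Ly6c1 probe, annotated to transcript variant 5, behaved differently between the slides. It averaged 3.23 ± 0.21 in deficient and 2.76 ± 0.18 in wild-type cells on slide 1, against -2.37 ± 0.64 in deficient and -3.13 ± 0.25 in wild-type cells on slide 2 (SD, n = 4 each). Its mean was lower on slide 2 by a log2 difference of -5.75, and 0.401% of all measured probes had a lower value of that difference, whereas the bright probe differed by 0.19. Within slides the variant 5 probe had genotype differences of 0.47 (SE 0.25) and 0.75 (SE 0.25), and the genotypes overlapped on both slides.

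Ly6e, known as thymic shared antigen 1 or Sca-2, is expressed widely in lymphoid cells. It gave 7.68, 7.80, 7.74 and 7.96 on the deficient arrays of slide 1, against 7.34, 7.61, 7.77 and 7.96 on the wild-type arrays. Slide 2 gave 6.66, 6.46, 6.56 and 6.73 in deficient cells, against 6.52, 6.53, 6.46 and 6.82 in wild-type cells. The genotypes overlapped on both slides, with differences of 0.13 (SE 0.13) and 0.02 (SE 0.13). Both genotypes were lower on slide 2, and the mean over genotypes differed between slides by -1.14.

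Ly6g encodes the neutrophil antigen recognised by Gr-1 antibodies. Its probe gave 1.69, 1.45, 1.94 and 1.45 on the deficient arrays of slide 1, against 0.48, 0.27, -0.27 and 0.09 on the wild-type arrays. On slide 2 it gave 1.53, 1.40, 1.57 and 1.76 in deficient cells, against 0.96, 0.89, 1.18 and 1.15 in wild-type cells. The genotypes did not overlap on either slide, and the fold was 2.81 on slide 1 (1.49, SE 0.15) and 1.43 on slide 2 (0.52, SE 0.15). As for Ly6a, the deficient groups of the slides overlapped, 1.63 ± 0.23 and 1.57 ± 0.15, while wild type of slide 1 (0.14 ± 0.32) lay below wild type of slide 2 (1.05 ± 0.14; SD, n = 4 each).

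Neutrophil markers were set beside the Ly6g probe. Of 12 listed, 11 were measured and 0 passed limma's test over both slides (1 at an unadjusted p under 0.05), where 17.0% of all genes passed. Their mean level per array was -2.32 to 0.17 in deficient and -3.33 to -0.29 in wild-type cells on slide 1. On slide 2 their mean was -5.68 to -5.46 in deficient and -5.49 to -5.26 in wild-type cells. Their differences on slide 1 were mostly higher in deficient cells, from Elane at 0.26 to Retnlg at 2.37, with S100a8 at 1.63 and S100a9 at 1.53. Camp at -0.82, Ngp at -0.33 and Ltf at -0.14 were the only lower ones. On slide 2, S100a8, S100a9, Ngp, Retnlg and Cxcr2 were well above background on 0 of 8 arrays, while Camp, Elane and Lcn2 were on all of them. The part of neutrophils in the Ly6g result was not tested. In bulk RNA, fewer cells of a type and less RNA per cell cannot be told apart.

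Ly6f, a family member of little-studied function, was well above background on 12 of 16 arrays. It gave -2.85, -3.33, -2.99 and -3.59 on the deficient arrays of slide 1 and -3.70, -3.83, -3.31 and -3.30 on those of slide 2, all well above background. In wild-type cells it gave -4.55, -5.51, -6.36 and -6.19 on slide 1, where all spots were too dim to be well above background, and -4.03, -4.58, -4.21 and -3.85 on slide 2. The genotypes did not overlap on either slide. Ly6f was 5.50-fold higher in deficient cells on slide 1, a ratio to dim wild-type spots and no lower limit. On slide 2 it was 1.55-fold higher (0.63, SE 0.32). With normexp background correction, which lifts dim spots, the slide 1 difference of 2.46 became 0.75.

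Ly6k is known for its role in sperm and is otherwise largely confined to testis, yet its probe was well above background on all 16 arrays. It gave 2.54, 2.61, 2.39 and 2.86 on the deficient arrays of slide 1, against 3.52, 3.95, 3.19 and 3.57 on the wild-type arrays. Slide 2 gave 1.57, 0.66, 0.56 and 1.84 in deficient cells, against 2.96, 3.32, 3.38 and 3.16 in wild-type cells. The groups were apart on both slides, and the deficient arrays of slide 2 fell into a higher and a lower pair. Ly6k was 1.94-fold lower in deficient cells on slide 1 (-0.96, SE 0.26) and 4.13-fold lower on slide 2 (-2.05, SE 0.26). Among the 9 probes of the genes examined, that of Ly6k alone had lower mean signal in deficient cells on both slides.
Ly6k (minus strand, chr15:74627529-74627588, shown as the member with lower signal): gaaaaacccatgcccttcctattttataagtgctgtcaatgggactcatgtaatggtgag

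Gml, a GPI-anchored molecule of the family whose human counterpart is known as a p53 target, was close to background. Its first probe gave -3.38, -5.55, -1.62 and -6.40 on the deficient arrays of slide 1, in the order 9, 11, 10 and 12, and was well above background on arrays 9 and 10. No wild-type array of slide 1 had it well above background, with values between -5.69 and -4.92. On slide 2 it gave -2.94, -3.33, -3.58 and -4.03 in deficient cells, all well above background, against -7.18, -7.14, -7.24 and -7.04 in wild-type cells, none of which were. The genotypes thus overlapped on slide 1 and were apart on slide 2. There Gml was 12.8-fold higher in deficient cells by the first probe and 9.37-fold by the second. These folds are taken against wild-type spots too dim to be well above background, and they are no lower limits. On slide 1 no fold is given for the first probe, since 2 of 4 deficient arrays were not well above background either, and the second probe differed by 0.61 (SE 0.75). The second probe gave -2.75, -4.97, -1.29 and -5.86 on the same deficient arrays of slide 1, again well above background on arrays 9 and 10, against -4.83 to -3.86 on the wild-type arrays, of which arrays 2 and 6 were well above background.

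The size of the Gml difference depended on how dim spots were treated. On slide 2 the first probe's difference of 3.68 became 0.84 with normexp and 1.10 in the authors' value table, and the second probe's 3.23 became 0.95 and 1.19. Without deficient array 10 the slide 1 difference of the first probe was 0.13, and that of the second probe was -0.20.

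**Figure D2:**
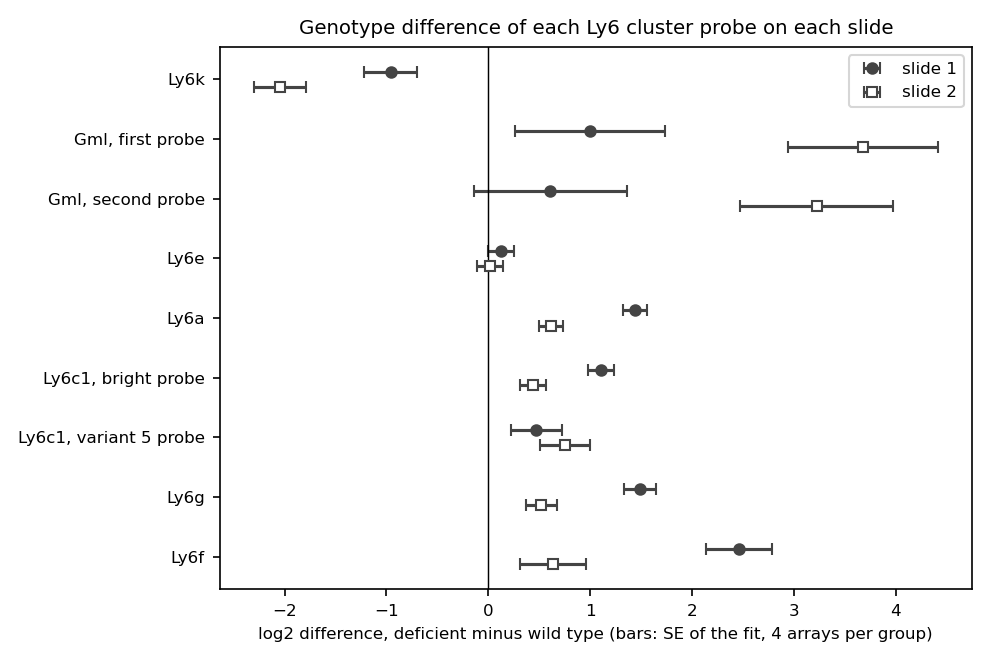
Genotype difference of each probe (x axis, log2, deficient minus wild type) on slide 1 (filled circles) and slide 2 (open squares), with bars for the fitted SE (n = 4 arrays in each group). Ly6a, Ly6g and Ly6f have larger differences on slide 1, Gml and Ly6k are farther from 0 on slide 2, and both Ly6e points lie near 0.

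The sizes of these differences were set side by side between the slides. Results by slide were known when the genes were chosen, so the change between slides is a description too, with no test. The slide 2 difference minus the slide 1 difference was -0.83 (SE 0.17) for Ly6a, -0.97 (SE 0.22) for Ly6g, -0.66 (SE 0.18) for the bright Ly6c1 probe and -1.83 (SE 0.46) for Ly6f, so the values of these 4 probes were smaller on slide 2. In the mean of its probes the Ly6c1 value was -0.19, and with normexp that of Ly6f was -0.53. Ly6k had -1.09 (SE 0.36), farther from 0 on slide 2 because its difference is negative on both. The Gml probes had 2.68 (SE 1.04) and 2.62 (SE 1.06), the variant 5 probe of Ly6c1 0.28 (SE 0.35) and Ly6e -0.11 (SE 0.18), the last 2 within their SE of 0. Slide 1 and slide 2 differ in samples, scan and design file, which cannot be told apart here.

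Ly6a, the bright Ly6c1 probe and Ly6g followed each other from array to array. Over the 16 arrays, which fall into the 4 groups of genotype and slide, Pearson's r of the levels was 0.978 for Ly6a with Ly6g, 0.955 for Ly6a with Ly6c1 and 0.963 for Ly6c1 with Ly6g. Spearman's rho was 0.941, 0.885 and 0.903 for the same pairs. Members were chosen for these steps between groups, so their likeness in levels restates the choice. Among 12386 genes compared, those outside the cluster nearest Ly6a were Gimap4 (0.952), Zc3h12d (0.951) and Fanca (0.945). For Ly6g the nearest were Nlrp1a (0.954), Nlrc5 (0.951) and Gimap4 (0.936), and for Ly6c1 they were Camk2b (0.936), Mgl2 (0.931) and H2-K2 (0.919).

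Within groups the likeness was looser. Taken as deviations from the 4 group means, r was 0.792 for Ly6a with Ly6g, 0.738 for Ly6a with Ly6c1 and 0.735 for Ly6c1 with Ly6g, and without the pair of arrays farthest from the median these were 0.606, 0.597 and 0.81. On deviations, Ly6g came 6th and Ly6c1 30th among genes near Ly6a. By this measure the genes nearest Ly6a were Vmn1r216 (0.835), Rhox2h (0.824) and Txlnb (0.816), those nearest Ly6c1 were Lce1a2 (0.835), Dock6 (0.828) and Mafa (0.779), and those near Ly6g included Rrbp1 (0.857) and Stx3 (0.856). The values share the array and its scaling, and they describe these 16 arrays.

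Ly6e and Ly6k had other neighbours. The levels of Ly6e went with those of Klhl36 (0.992), Ptk2b (0.991) and Pqbp1 (0.990), and its deviations with Cd37 (0.980), Ilk (0.955) and Med24 (0.939). The levels of Ly6k went with Zc3h12c (0.908), Chst14 (0.901) and Hmga2-ps1 (0.899), all lower in deficient cells on both slides, and its deviations with S1pr1 (0.919), Zfp827 (0.859) and Pdxk-ps (0.851). With Ly6a, Ly6k had r = -0.691 for levels and 0.45 for deviations.

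**Figure D3:**
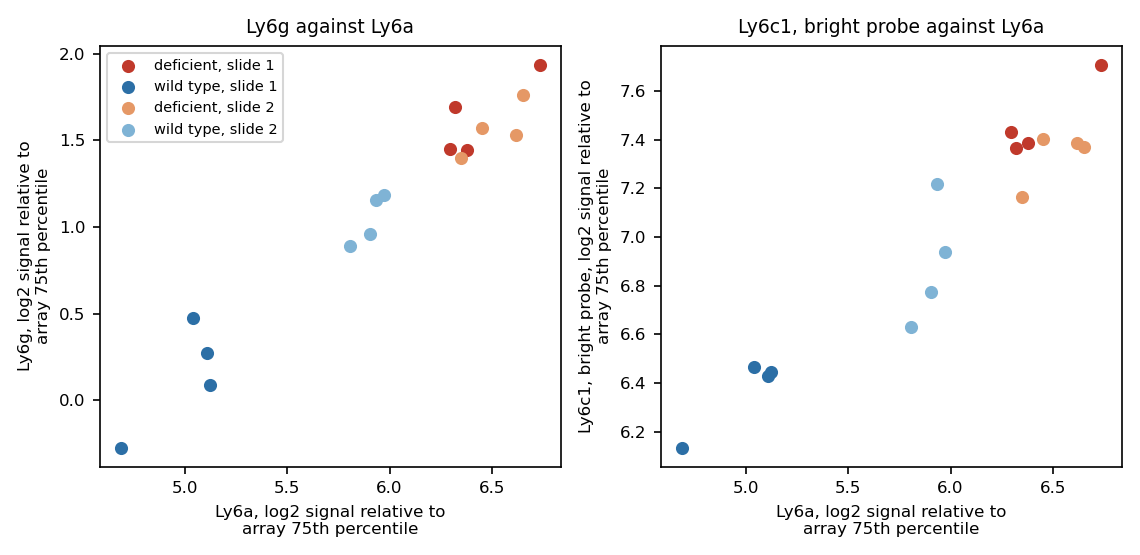
Ly6g (left) and the bright Ly6c1 probe (right) against Ly6a on the 16 arrays, all as log2 signal relative to the array's 75th percentile, with each point an array coloured by group. Deficient arrays of both slides lie together at the upper right, wild-type arrays of slide 2 mostly below them, and wild-type arrays of slide 1 at the lower left. On the Ly6c1 axis wild-type array 5 of slide 2, at 7.22, exceeds deficient array 2 of slide 2, at 7.17.

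Genes lying between the members were taken by position, and 3 of the 9 measured probes there were higher in deficient cells and none lower (limma, over both slides), where 16.8% of all probes passed. These were I830127L07Rik (1.61, SE 0.40, adjusted p = 0.0135), ENSMUST00000089689 (0.82, SE 0.10, adjusted p = 5.15e-05) and Ly6i (0.42, SE 0.07, adjusted p = 0.00122). The first pair carry the probes that resemble Ly6g's, and their values stand beside it for that reason. ENSMUST00000089689 averaged 1.84 in deficient and 0.73 in wild-type cells on slide 1, and 1.70 in deficient and 1.17 in wild-type cells on slide 2. I830127L07Rik differed by 2.79 on slide 1, where 2 of 4 wild-type arrays were well above background, and by 0.43 on slide 2.

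Ly6i, whose product is a surface antigen close to Ly6C, differed between slides. It averaged -2.73 in deficient and -3.90 in wild-type cells on slide 1, and -3.57 in deficient and -3.26 in wild-type cells on slide 2. The differences of 1.16 and -0.32, deficient minus wild type, were themselves different (slide 2 minus slide 1, -1.48, adjusted p = 7.59e-05), a contrast that 13.8% of all probes passed, and the call was kept under each of the 25 alternatives run. The slide 2 difference alone did not pass (adjusted p = 0.077). The call over both slides rests on slide 1, and an additive slide block ended that call (adjusted p = 0.203).

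Within 1 Mb of the members, 65 of 101 other probes were measured, of which 9 rose and 4 fell, with a median difference of 0.03 against -0.03 over all measured probes. The share called, 13 of 65, can be read against the 16.8% of all probes. Beyond the cluster, 9030619P08Rik, classed as a transcribed pseudogene in the RefSeq table, rose by 0.95 (SE 0.10, adjusted p = 1.44e-05). Jrk fell by 0.48 (SE 0.10, adjusted p = 0.00511). A probe for a transcript named only by coordinates also fell (-0.57, SE 0.17, adjusted p = 0.0346), a call lost when any 1 of 10 arrays was left out. Another measured probe of that transcript differed by 0.17 and did not pass. In the mean of its probes the transcript differed by -0.20 and did not pass (limma, adjusted p = 0.283). The nearest measured gene on the Ly6k side, Ly6d, a marker of early B cell commitment, fell by 0.37 (SE 0.11, adjusted p = 0.0289), a call lost when deficient array 1, 2 or 3 of slide 2 or wild-type array 8 of slide 1 was left out (adjusted p between 0.0536 and 0.0581). On the Ly6f side the nearest, Gm3142, differed by 0.49 (SE 0.36, adjusted p = 0.395). With slide as a random block 7 of the 65 passed, and 6 when dim probes were kept.

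**Figure D4:**
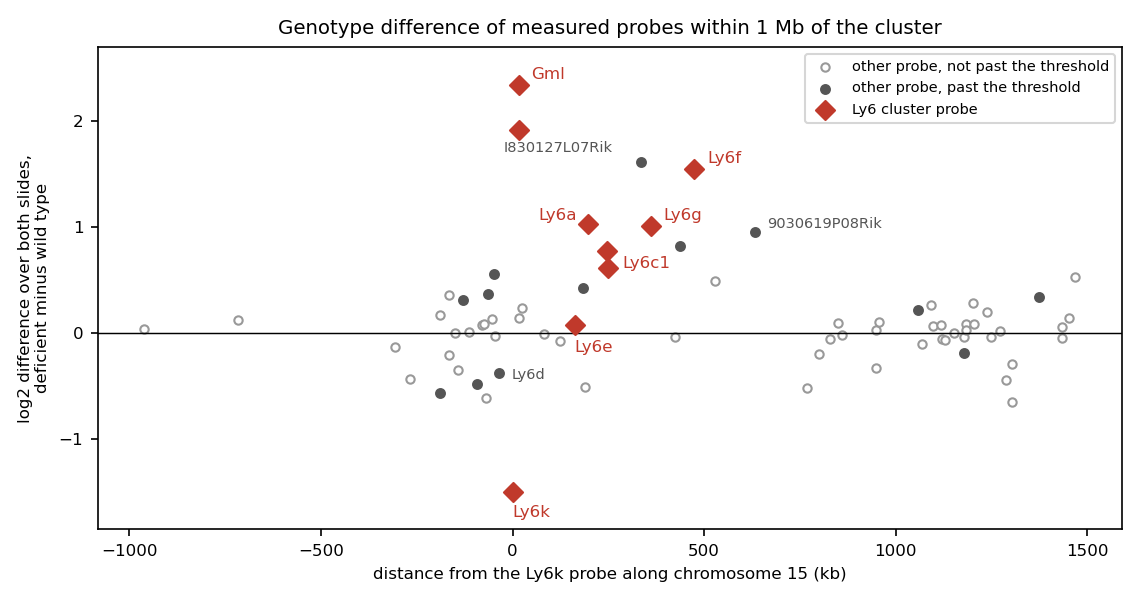
Genotype difference over both slides (y axis, log2, deficient minus wild type) of measured probes within 1 Mb, by distance in kb from the Ly6k probe (x axis). Red diamonds are the 9 cluster probes, filled grey points other probes past the threshold and hollow points those not past it. The cluster probes lie above 0 except for Ly6k, at -1.50, and Ly6e lies near 0, at 0.07.

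Other genes of the Ly6 and urokinase receptor family differed both ways. They lie at other places in the genome, beside the cluster or, as Ly6i does, between its members. Of those called, Ly6i, Ly6d, Lynx1 and Lypd2 were also counted within 1 Mb, so these counts are not separate. Of 32 listed, 21 were measured, 4 rose and 2 fell, with a median difference of 0.00. The share of genes called over the whole array was 17.0%. Those that rose with the largest differences were Lynx1, a modulator of nicotinic receptors (0.56, SE 0.17, adjusted p = 0.0385), Ly6g5b (0.44, SE 0.08, adjusted p = 0.00297) and Ly6i. Those that fell were Ly6d and Cd59a, an inhibitor of complement (-0.44, SE 0.12, adjusted p = 0.0231). Cd59a differed by 0.14 on slide 1 and -1.02 on slide 2. The Lynx1 call was lost when any 1 of 12 arrays was left out, with adjusted p up to 0.0755 (without wild-type array 1 of slide 2). It rests on the brightest Lynx1 probe. Another measured Lynx1 probe differed by -0.03 over both slides, made of -0.51 on slide 1 and 0.45 on slide 2. In the mean of the Lynx1 probes the difference was 0.27 and did not pass (limma, adjusted p = 0.238). With slide as a random block 2 of the 21 passed, and Cd59a did not (adjusted p = 0.217).

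Of 28 measured genes that build the GPI anchor, 1 rose and 3 fell, with a median of -0.07, near the background share of 17.0% of all genes called. Pgap2, which remodels the anchor, rose by 0.39 (SE 0.12, adjusted p = 0.0404). Pigc and Pigq, of the enzyme complex for the first step of synthesis, fell by 0.49 (SE 0.09, adjusted p = 0.00317) and 0.25 (SE 0.06, adjusted p = 0.0095), and Pigk, of the transamidase that attaches the anchor, fell by 0.22 (SE 0.07, adjusted p = 0.0477). Pigq differed by -0.49 on slide 1 and -0.01 on slide 2, and its call did not survive an additive slide term (adjusted p = 0.077) or median scaling (adjusted p = 0.0687). Leaving out 1 array ended the Pgap2 call for 11 of the 16 arrays and the Pigk call for 13. With the array median as the scale, 2 of the 28 passed.

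Among other GPI-anchored surface genes, 19 of 23 were measured, 3 rose and 2 fell, with a median of 0.00, where 17.0% of all genes passed. Nt5e, which encodes CD73, rose by 2.10 (SE 0.36, adjusted p = 0.00142), its difference being 1.83 on slide 1 and 2.36 on slide 2. Raet1e, a ligand of NKG2D, rose by 0.71 (SE 0.13, adjusted p = 0.00217), made of 1.59 on slide 1 and -0.16 on slide 2, and Cd48 rose by 0.29 (SE 0.07, adjusted p = 0.00909). Cd24a, the heat-stable antigen, fell by 0.53 (SE 0.14, adjusted p = 0.0181), and Prnp, the prion protein gene, fell by 0.42 (SE 0.07, adjusted p = 0.00163), made of 0.05 on slide 1 and -0.89 on slide 2. With slide as an additive block, Raet1e (adjusted p = 0.0888) and Prnp (adjusted p = 0.0713) did not pass.

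Genes known to be induced by interferon, as Ly6a is, were mostly higher in deficient cells. Of 31 measured, 26 rose and 0 fell, with a median of 0.87, while 7.43% of all genes rose. At an unadjusted p under 0.05, 0 fell, and between 19 and 27 passed under the alternatives. Oasl2 averaged 1.09 in deficient cells of slide 1 against wild-type spots that were all dim. It was 149-fold higher there, a ratio to those dim spots and no lower limit. It differed by 3.00 on slide 2 and by 5.14 over both slides (limma, adjusted p = 2.7e-05). Other processing brought the 5.14 down to as low as 3.06. Ifi44 rose by 2.57 (SE 0.40, adjusted p = 0.000623) and Oas2 by 2.53 (SE 0.29, adjusted p = 4.31e-05). The median of the list was 1.35 on slide 1 and 0.47 on slide 2, and the difference of Ly6a was 1.44 and 0.61, while Ly6e differed by 0.13 and 0.02. This list and Ly6a were both chosen with earlier results of these data known. The count of genes called, their adjusted p-values and the likeness to Ly6a are therefore a description only. The part of interferon in the Ly6 values was not tested, and strain and genotype cannot be told apart here.

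Promoters of Ly6c1, Ly6g and Ly6f are in the RefSeq table of GRCm38.p6, and 250 bases before each start were searched on both strands for the core of an interferon-stimulated response element, TTTC repeated after a gap of any 2 bases, and for a gamma-activated site, TTCNNNGAA. None of the 5 windows of these genes held either, against 2.98% and 7.02% of 32851 promoters. This says only that these letters are not in these windows. Both motifs are rare and the windows overlap within Ly6c1 and within Ly6g, so their absence carries no weight. Ly6a, Ly6e, Ly6k and Gml had no promoter there and were not searched.

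Markers of other cells in which Ly6 genes are high were set beside these results. Over both slides 17.0% of all genes passed in limma. Of 10 T cell markers, 2 rose, Cd3g and Lck, with the mean level of the list per array at 0.51 to 0.80 in deficient and 0.33 to 0.76 in wild-type cells on slide 1, and at -1.34 to -0.96 in deficient and -1.48 to -1.36 in wild-type cells on slide 2. Cd3g was dim on all slide 2 arrays. Of 9 measured monocyte and macrophage markers 0 passed in limma (2 at an unadjusted p under 0.05), and Ccr2 and Fcgr1 were among those dim on all slide 2 arrays. Of natural killer, plasmacytoid dendritic and endothelial cell markers, 0 passed in limma (1 of each list at an unadjusted p under 0.05), and of B cell markers Cd22 rose and Cr2 fell. Plasma cell markers, of which Irf4 alone passed over both slides (-0.47, adjusted p = 0.0101), had list means of 2.69 to 3.74 in deficient and 2.13 to 2.75 in wild-type cells on slide 1, and of 0.86 to 1.56 in deficient and 1.98 to 2.62 in wild-type cells on slide 2. Igj, the joining chain of secreted antibody, differed by 1.05 on slide 1 and -1.09 on slide 2, and Tnfrsf17 by 2.04 and -2.09. The deficient spots of Tnfrsf17 on slide 2 were all dim, which limits its value there. Sdc1 (0.70 and -1.4), Prdm1 (0.41 and -1.35) and Xbp1 (0.54 and -0.20) also changed sign between slides. Irf4 was lower on both (-0.60 and -0.33). The part of these cells in the Ly6 results was not tested.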

How the data were processed

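Total RNA of bead-purified splenic B cells was hybridised to 16 single-colour arrays, 4 per genotype on each of 2 slides, grouped by the sample labels. The spot intensity is the processed signal that Agilent Feature Extraction 10.7.3.1 wrote for the authors with protocol GE1_107_Sep09, already background-corrected, per the file headers, and probe positions are in mm9. The deposited value table holds log2 values by the authors, with each slide scaled apart, and was used within slides only as an alternative. The submitters' processing notes name limma.

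From these files, levels were computed as log2 processed signal after scaling each array to its 75th percentile, with control spots left out and spots of 1 probe averaged. Probes kept were well above background on 4 or more arrays (32951 of 55681). They were fitted with limma 3.58.1 in R 4.3.3 as 4 group means, and p-values were adjusted by Benjamini-Hochberg over all probes, with calls at 0.05. Each difference subtracts wild type from deficient, and is the mean of the slides unless a slide is named. The fit was tested on simulated data. Lists and markers use the brightest probe of a gene (22799 genes). The members and all lists were chosen with earlier results of these data known, so no p-value is given for a member. Named are every member, up to 3 higher and 3 lower called genes of each list and of the 1 Mb window, the nearest measured gene on each side, and the 3 genes most like each member well above background on all 16 arrays, of which 1 is not reported here. Cell type markers named singly were chosen after their values were seen. The 2 slides carry different design files, which differ in gene names for 2201 spots, none of them a member's, and slide 2's names were used. Gene symbols were matched to RefSeq (GRCm38.p6) for 27509 probes. A fold against a group with no spot well above background compares the bright group's mean with a value per dim array. That value is the dim spot's own signal or, if higher, the array's lowest detected signal. Such a fold depends on how dim spots are treated and is no lower limit. The number of arrays limits precision. Alternatives varied scaling, background correction, the filter, the treatment of slide, array weights, probe choice and single arrays.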

Additional observations from a re-analysis of the deposited data

Results flagged for a closer look

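Among 36 groups of 4 arrays examined for a single array far from the rest, of which chance flags about 1 in 20, the bright Ly6c1 probe had such an array in 2 groups. These were deficient array 2 of slide 2, at 7.17 against 7.37 to 7.40 on the other deficient arrays there, and wild-type array 6 of slide 1, at 6.13 against 6.43 to 6.47 on the other wild-type arrays there.

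The genotype difference was smaller on slide 2 than on slide 1 for Ly6a (slide 2 minus slide 1, -0.83), the bright Ly6c1 probe (-0.66), Ly6g (-0.97) and Ly6f (-1.83), a description with no test, since these were chosen with results by slide known. Near them, the difference between slides passed in limma (adjusted p under 0.05) for Ly6i (-1.48) and 9030619P08Rik (-0.88). Among the listed genes it differed for Oasl2 (-4.28), Raet1e (-1.74), Cd59a (-1.16), Prnp (-0.95) and Pigq (0.48). Among plasma cell markers it differed for Tnfrsf17 (-4.13, with dim deficient spots on slide 2), Igj (-2.14), Sdc1 (-2.12) and Prdm1 (-1.77). The part of plasma cells in the Ly6 values was not tested.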

How the results depend on the processing

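Of 717 genotype differences of the members under 14 settings and 16 single-array omissions, 707 moved by less than 1 SD between arrays, 10 moved by more and 0 changed sign among those larger than 1 SD. Those that moved were of Gml and Ly6f with normexp or the authors' value table, and of Ly6c1 in the mean of its probes (0.79 on slide 1). The probes called over both slides numbered 5525, with 3085 for slide as a random block and 4219 to 5601 without 1 array. On slide 1 they numbered 7663, with 2820 for each slide fitted alone, 3357 in the authors' table and 6034 to 8307 without 1 array. On slide 2 they numbered 2457, with 8201 for array weights, 3851 for each slide fitted alone, 3958 in the authors' table and 1443 to 2725 without 1 array. For the difference between slides they numbered 4552, with 7329 for array weights, 2306 with no filter, 2821 for quantile normalization and 2915 to 4723 without 1 array. Family genes called numbered 6, with 3 for no filter and for slide as an additive block, 2 for the random block and 3 to 7 without 1 array. GPI synthesis genes numbered 4, with 7 for array weights, 2 for median scaling, no filter and either block, and 2 to 5 without 1 array. Surface genes numbered 5, with 3 for either block and 5 to 7 without 1 array, and interferon-stimulated genes 26, with 26 to 27 without 1 array. Probes within 1 Mb numbered 13, with 6 for no filter, 7 for the random block, 8 for the additive block and 7 to 13 without 1 array. Tnfrsf17 over both slides reversed to 0.51 with normexp, against -0.02, and the cause was not tested. Of calls over both slides, 45.1% were higher in deficient cells, against 59.7% with median scaling, and on slide 2 48.7%, against 65.2% with it. On slide 1 39.4% were higher, against 53.7% in the authors' table. The replicate block, possible on slide 2 for arrays numbered 1, 2 and 3, gave 1630 calls, against 3557 for the same arrays without it. Same-numbered arrays had deviations correlated at 0.105, 0.0641 and 0.022, and deficient array 3 did not correlate best with its own number, so the numbers were not taken to pair the samples. Signal near background limits Gml, Ly6f, I830127L07Rik and the slide 2 value of Tnfrsf17.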
